A study of Sus scrofa with 44 samples.

Results

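The genes described here are 7 pig genes of red blood cells and their precursors, HBZ, ALAS2, AHSP, SLC4A1, GATA1, KLF1 and EPB42, out of 22427 genes in the deposited expression files. They were chosen by gene symbol, with earlier results on the same libraries known, because HBZ had stood out at the earliest stage and the others are expressed in the red cell lineage. Their levels are therefore given as a description, with no test. All 7 were found, and 5 of them averaged at least 1 TPM over the libraries, while KLF1 and EPB42 did not. TPM is a length-corrected transcript level that sums to a fixed total in each library.

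The series followed m6A, a methyl mark on RNA, in the longissimus dorsi, a back muscle, of pigs before birth. Muscle was sampled at 33, 40, 50, 60, 70 and 95 days post coitus (E33, E40, E50, E60, E70 and E95), with 3 input libraries and 3 libraries of RNA enriched with an antibody against m6A at each stage, all from rRNA-depleted RNA. The labels name no genotype, breed, sex or treatment, and do not say whether the 3 libraries of a stage came from separate fetuses, so the spread between them may be partly technical. PK15, a kidney cell line from pig, gave 4 samples of polyA RNA and 4 of rRNA-depleted RNA, with 1 peak list for each preparation. Expression was read in the 18 muscle input libraries, and methylation in 8 peak lists, 1 for each stage and PK15 preparation.

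Primitive red cells arise first in the yolk sac and fill the early embryonic circulation, and definitive red cells from the fetal liver replace them. Primitive cells carry haemoglobin built with the zeta chain, encoded by HBZ, and definitive cells use the alpha chain, which is not particular to them. ALAS2 starts haem synthesis in erythroid cells, AHSP holds free alpha globin in a stable form, SLC4A1 (band 3) is the anion exchanger of the red cell membrane, and EPB42 (protein 4.2) ties band 3 to the membrane skeleton. GATA1 and KLF1 are transcription factors that switch on globin and other erythroid genes. In bulk RNA fewer cells of a type and less RNA per cell cannot be told apart.

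The globin genes of the alpha cluster lie on chr3 of the Sscrofa11.1 assembly, and their sequences are shown because they bear on whether zeta and alpha transcripts can be counted apart. RefSeq places HBZ at chr3:41490758-41492883 on the minus strand, and 2 alpha globin genes, LOC110259958 and LOC100737768, lie on the same strand. The middle coding exon (exon 2, 205 bases) is given for HBZ (chr3:41491069-41491273) and for LOC110259958 (chr3:41482756-41482960), from the RefSeq genome. The capitals in the alpha exon mark the 60 bases of an m6A peak at E60, described further on.
HBZ exon 2: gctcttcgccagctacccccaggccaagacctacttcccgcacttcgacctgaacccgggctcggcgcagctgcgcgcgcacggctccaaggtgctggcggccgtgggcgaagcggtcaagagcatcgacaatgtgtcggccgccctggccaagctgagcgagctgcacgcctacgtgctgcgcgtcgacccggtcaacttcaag
LOC110259958 exon 2: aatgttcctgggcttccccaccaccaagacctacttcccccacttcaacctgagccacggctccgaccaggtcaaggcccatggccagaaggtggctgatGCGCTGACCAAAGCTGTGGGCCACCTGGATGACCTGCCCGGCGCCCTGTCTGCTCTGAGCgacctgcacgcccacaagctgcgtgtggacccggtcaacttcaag
The 2 exons were identical at 67.3% of positions, with a longest identical run of 18 bases. Over the 429 coding bases, HBZ and the alpha gene were identical at 66.4%. The 2 alpha genes were identical at 100% of their coding bases, so reads within the coding sequence cannot be assigned to 1 of them. Their transcripts differ outside it, with first exons of 507 and 157 bases.

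A single gene without a symbol took 37.4% to 72.4% of the TPM of a library, and all other levels move with that share. The median log2 difference of all 13334 genes averaging at least 1 TPM was -0.59 from E33 to E40, -0.44 from E40 to E95 and -1.02 from E33 to E95 as deposited, and 0.00 in each after median-ratio scaling, which gives every library the same typical level. Values by library are given as deposited, with scaled values where they differ in order, and tests were run on scaled values. E40 replicate 2 and E50 replicate 3 stood apart, with 17.3% and 14.4% of their TPM in ENSSSCG00000032599. The summed level of 8 skeletal muscle markers was 3131.2 to 3668.7 scaled TPM at E33 and 15978.1 to 25012.7 at E95, so muscle transcripts were present in all libraries. Of 8 liver markers, ALB was at most 1.07 TPM, AFP at most 0.531 TPM and TTR at most 0.207 TPM in the 18 libraries. APOA1 was at 20.96 to 80.97 TPM, and the other 4 reached at most 1.23 TPM. On scaled values APOA1 rose from E33 to E95 by 0.98 on the log2 scale (limma adjusted p 0.00353). As deposited the sum of the 8 was 47.8 to 81.7 TPM at E33 and 48.7 to 69.5 TPM at E95, which overlap.

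HBZ was high at E33 and nearly absent later. It stood at 120, 146 and 404 TPM in E33 replicates 1, 2 and 3. In E40 it was listed at 0, 3.51 and 2.19 TPM, and in E50 at 3.39, 1.85 and 0 TPM. In E60 it was listed at 1.94, 0 and 1.74 TPM, in E70 at 5.14, 3.29 and 0 TPM, and in E95 at 4.04, 0 and 0 TPM. All 3 E33 libraries lay above the other 15, which reached at most 5.14 TPM and were listed at 0 in 6 cases. After scaling the E33 libraries were at 102, 73.4 and 216 TPM, and the highest other library was E40 replicate 2 at 7.58 TPM. The stages from E40 to E95 overlapped one another. Without E40 replicate 2 and E50 replicate 3 the highest other library was E95 replicate 1, at 6.24 scaled TPM.

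**Figure D1:**
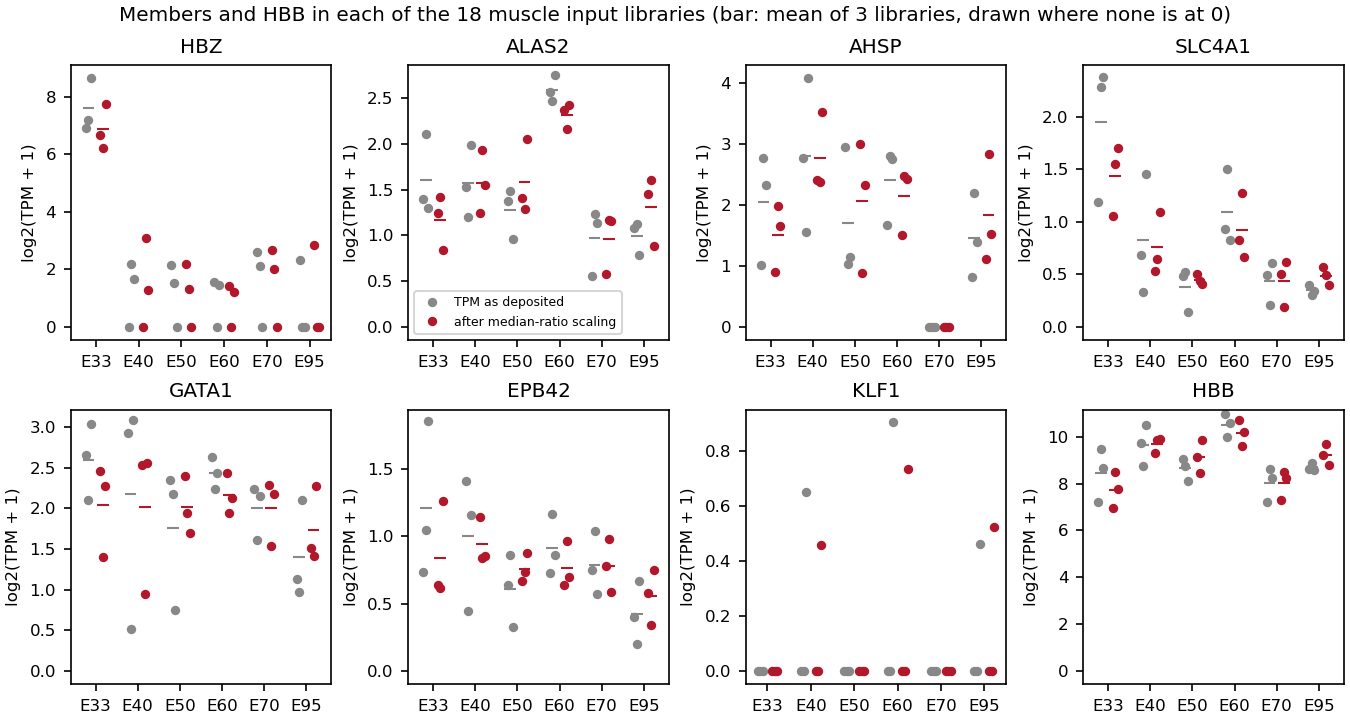
Level of each of the 7 genes and of HBB as log2(TPM + 1) in the 18 muscle input libraries by stage, with grey points as deposited and red points after median-ratio scaling, and a bar at the mean of 3 libraries where none is at 0. HBZ lies above 73 scaled TPM in the 3 E33 libraries and at or below 7.58 in all others, ALAS2 is highest at E60, and KLF1 is at 0 in 15 libraries.

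ALAS2, the erythroid form of the first haem enzyme, followed another course and was highest at E60. Its levels were 1.63, 3.32 and 1.47 TPM at E33, 1.87, 1.30 and 2.96 TPM at E40, and 1.59, 1.79 and 0.951 TPM at E50. They were 4.90, 4.51 and 5.72 TPM at E60, 0.468, 1.34 and 1.20 TPM at E70, and 1.12, 1.17 and 0.729 TPM at E95. The 3 E60 libraries lay above all other 15, whose highest value was 3.32 TPM as deposited and 3.14 TPM after scaling. The scaled means were 3.99 TPM ± 0.468 at E60 and 0.985 TPM ± 0.430 at E70 (SD, n = 3 each), and the 5 stages other than E60 overlapped their neighbours in the order of means.

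AHSP, the chaperone of alpha globin, was highest in a library of E40 and listed at 0 throughout E70. It was at 1.03, 5.88 and 4.02 TPM at E33, 5.87, 1.94 and 16.1 TPM at E40, and 6.71, 1.04 and 1.22 TPM at E50. It was at 2.19, 5.99 and 5.77 TPM at E60 and at 0.760, 3.57 and 1.63 TPM at E95. As deposited E33, E40, E50, E60 and E95 overlapped one another. After scaling E33, at 0.869 to 2.95 TPM, lay below E40, at 4.196 to 10.5 TPM. E70 was the sole stage with all 3 libraries at 0. An exact 0 in a table without counts can be a failed estimate, so AHSP at E70 is described only as listed at 0.

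SLC4A1, the band 3 anion exchanger, was highest at E33 on average. It stood at 1.28, 3.86 and 4.21 TPM at E33, 0.609, 0.263 and 1.75 TPM at E40, and 0.399, 0.432 and 0.09995 TPM at E50. It was at 0.913, 1.85 and 0.777 TPM at E60, 0.404, 0.151 and 0.521 TPM at E70, and 0.316, 0.236 and 0.271 TPM at E95. The E33 libraries lay above all of E50, E70 and E95 and overlapped E40 and E60. After scaling its mean went from 1.76 TPM ± 0.607 in the E33 libraries to 0.404 TPM ± 0.0869 in those of E95 (SD, n = 3 each). EPB42, which binds band 3, ranged from 0.535 to 1.40 scaled TPM at E33 and from 0.264 to 0.679 at E95, so its stages overlapped.

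Of the transcription factors, GATA1 was present in every library and showed no clear order of stages. Its levels ran from 0.428 TPM (E40 replicate 2) to 7.51 TPM (E40 replicate 3), with a median of 3.61 TPM, and its scaled stage means lay between 2.45 TPM (E95) and 3.55 TPM (E40). Every stage overlapped its neighbours in that order. KLF1 was listed at 0 in 15 of 18 libraries, with 0.571 TPM in E40 replicate 3, 0.874 TPM in E60 replicate 3 and 0.377 TPM in E95 replicate 3, each the sole library of its stage above 0.

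As deposited, 4 of the 7 genes (HBZ, ALAS2, SLC4A1 and EPB42) had all 3 E33 libraries above all 3 of E95, where 64.9% of all genes tested did. After median-ratio scaling 2 did (HBZ and SLC4A1), against 28.2% of all genes, and after quantile normalization also 2, against 30%. With the 2 most abundant genes left out it was 3, against 55.5%. The choice of genes used this contrast, so nothing is read from these counts.

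Setting the genes against HBB, the beta globin and the most abundant red cell transcript here, removes the differences in scaling between libraries. HBZ amounted to 82.6%, 20.6% and 98.9% of the TPM of HBB in E33 replicates 1 to 3, and to at most 3.45% in the other 15 libraries. SLC4A1 amounted to 0.543% to 1.03% of HBB at E33 and to 0.0359% to 0.271% in the other 15. ALAS2 amounted to 0.359% to 1.12% at E33 and 0.190% to 0.449% in the others, and these ranges overlap. Per unit of HBB both HBZ and SLC4A1 separated E33 from every later library, although SLC4A1 itself overlapped E40 and E60, and HBB, the denominator, had its lowest scaled mean at E33 (233 TPM). ALAS2 at E60, with 0.247% to 0.449%, did not stand apart. AHSP at E33, with 0.705% to 0.986% of HBB, lay within the range of 0 to 1.26% of the others.

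The composition of the globins changed accordingly. Of the summed TPM of 5 globin genes, HBZ took 34.8%, 14.8% and 40.0% in the E33 libraries and 0 to 2.68% in the other 15. HBB took 42.2%, 72.2% and 40.5% at E33 and 77.7% to 90.3% later, and these ranges do not overlap. The shares of a library add up to a fixed total, so a high share of HBZ lowers that of HBB. The lower share of HBB at E33 is therefore no separate result. E33 replicate 2 differed from its companions, with the lowest share of HBZ and the highest HBB of the stage, at 711 TPM against 146 and 408. The other globins of the sum were HBM and HBQ1, of the mu and theta chains, and ENSSSCG00000007978, a gene without a symbol whose E60 peak lies in the RefSeq alpha globin gene LOC110259958 and which was therefore taken as a gene of the alpha locus after its values were seen. It took 4.05% to 8.84% at E33 and 4.08% to 10.6% later, and these ranges overlap. The 2 alpha genes share their coding sequence, and how their reads were counted was not tested. The shares therefore hold for these 5 entries alone. ENSSSCG00000014726, a gene without a symbol described further on, is not in the sum. It was at 28.3% to 64.7% of HBB at E33 and at most 0.211% in the other 15 libraries. HBE1, the epsilon globin, was not matched by symbol in the expression files, and its level was not analysed here.

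**Figure D2:**
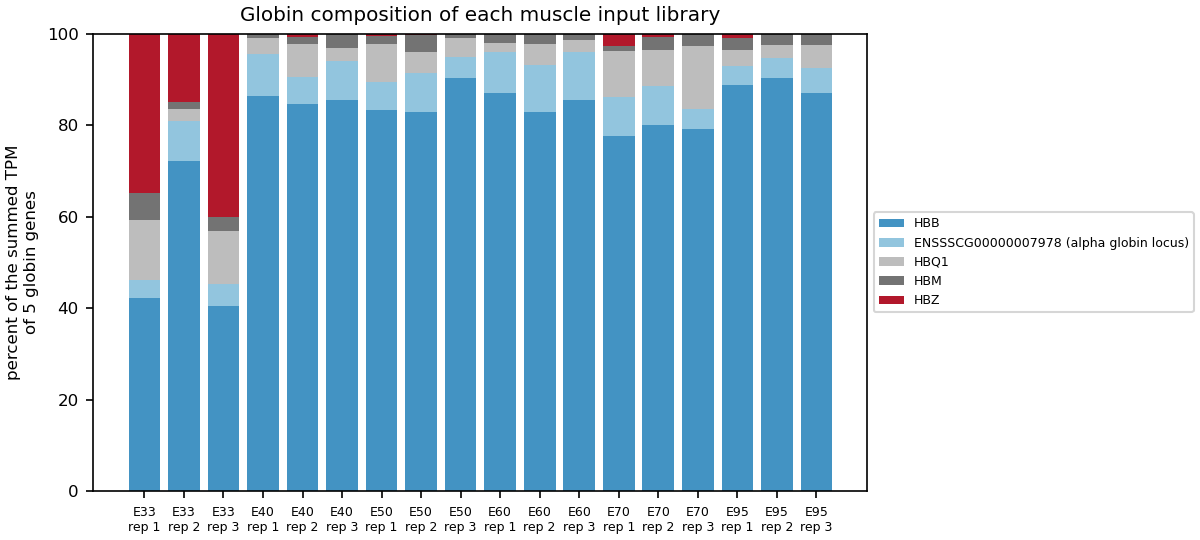
Percent of the summed TPM of 5 globin genes in each of the 18 muscle input libraries, with HBZ at the top of each bar. HBZ takes 14.8% to 40.0% in the 3 E33 libraries and at most 2.68% in the other 15.

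HBB rose from E33 to E40 and fell from E60 to E70. Its levels were 857, 424 and 1459 TPM at E40, 1989, 1004 and 1529 TPM at E60, and 149, 394 and 297 TPM at E70. With scaled means of 233 TPM ± 118 at E33 and 833 TPM ± 179 at E40 (SD, n = 3 each), whose libraries do not overlap, the log2 difference was 1.94 (SE 0.45, limma adjusted p 0.00803). As deposited that difference was 1.21 (limma adjusted p 0.177), not called. From E60 to E70 the log2 difference was -2.15 (SE 0.45, limma adjusted p 0.0257), in scaled means from 1207 to 275 TPM, between stages where 1.76% of all genes tested were called. The libraries of E60 and E70 did not overlap as deposited or after scaling, and this pair of stages was fitted on scaled values alone. The pairs E40 to E50, E50 to E60 and E70 to E95 were fitted likewise, and HBB was not called in them. E60 to E70 was picked from these pairs, and its adjusted p does not allow for that choice. From E33 to E95 the log2 difference of HBB was 1.499 (SE 0.45, limma adjusted p 0.0139), against 0.24 as deposited (limma adjusted p 0.713). The difference was not called without E33 replicate 1 (1.10) or without E95 replicate 2 (1.28). Nor was it called when the 2 most abundant genes were left out before rescaling (0.85). The alpha locus gene differed in the same directions, by 1.57 from E33 to E40 (SE 0.40, limma adjusted p 0.0140) and -2.52 from E60 to E70 (limma adjusted p 0.00488). HBM and HBQ1 were not called from E33 to E40 or from E33 to E95, except that HBQ1 was lower at E95 as deposited (-1.54, limma adjusted p 0.0268).

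The level of ALAS2 went with that of HBB more closely than with HBZ. Over 18 libraries the Pearson correlation of log2(scaled TPM + 1) was 0.82 between ALAS2 and HBB (Spearman 0.84), 0.89 over the 15 libraries without E33 and 0.86 without the 2 libraries farthest from the median of HBB. The correlation of their deviations from the stage means was 0.72. Among 13333 other genes tested, HBB had the highest correlation with ALAS2, followed among genes with a symbol by UACA (0.75), RTF1 (0.75), BGN (0.73), ISLR (0.69), CCNG2 (0.68), HTRA1 (0.67) and MYBPC3 (0.66). AHSP had a correlation of 0.64 with HBB and 0.51 with ALAS2. The libraries share their stage and the scaling, so these are descriptions.

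**Figure D3:**
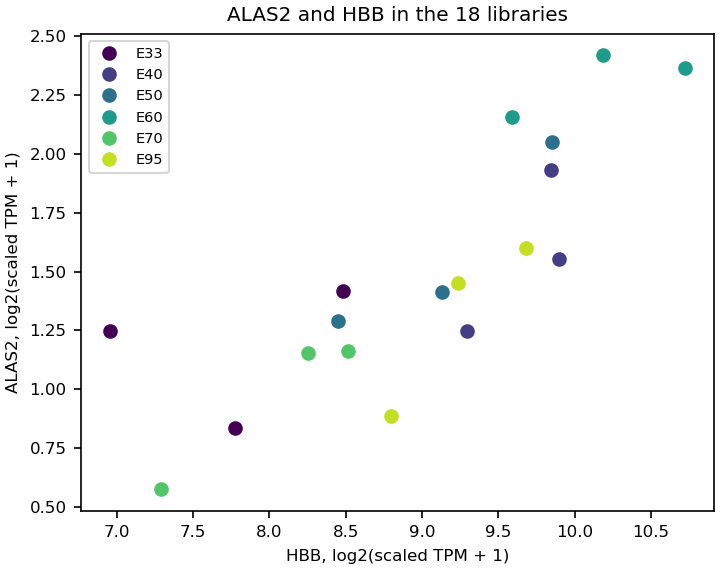
ALAS2 against HBB, both as log2(scaled TPM + 1), with 1 point per muscle input library coloured by stage. The 3 E60 libraries are the highest for ALAS2, and the Pearson correlation over all 18 is 0.82.

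HBZ correlated at -0.57 with HBB and at 0.65 with SLC4A1. Over the 15 libraries without E33 these correlations were -0.15 and -0.13. The genes with a symbol most like HBZ were DPYSL4 (0.93), SDK1 (0.92), ZIC1 (0.91), SEMA3F (0.91), TNS3 (0.90), ZFHX3 (0.90), CLMN (0.90) and RUNX2 (0.90). Over the 15 libraries without E33 these 8 correlations were 0.22 to 0.54, so the likeness rests on the E33 libraries. There were 261 genes with a correlation of at least 0.8 with HBZ, against 2 with ALAS2. ENSSSCG00000014726, which has no symbol and was singled out after its values were seen, was at 58.998 to 141 scaled TPM at E33 and at most 1.62 TPM in the other 15 libraries, 11 of which were listed at 0, and correlated with HBZ at 0.92.

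The other genes of the red cell programme were taken from a list of 81 symbols for globins, haem synthesis, red cell membrane, red cell enzymes and maturation, erythroid transcription, and erythropoietin and iron, without the 7 genes above. Of these 63 were matched and 43 averaged at least 1 TPM and were tested with limma. From E33 to E40, 10 of the 43 were called at an adjusted p under 0.05 (6 higher, 4 lower), against 21% of all genes tested, of which 10.1% were higher and 10.9% lower. From E33 to E95, 19 were called (14 higher, 5 lower), against 46.7% of all genes (22.8% higher, 23.8% lower). From E40 to E95 it was also 19 (15 higher, 4 lower), against 37.7% of all genes (19.2% higher, 18.4% lower). The directions depend on the scaling. As deposited, 2 of the genes called from E33 to E95 were higher and 15 lower, where 352 of all genes were higher and 6109 lower. When the 2 most abundant genes were left out before TPM was rescaled, 5 were higher and 15 lower, with 1186 and 6926 of all genes, and from E40 to E95 the split was 5 and 14, with 996 and 6312 of all genes. The median log2 difference of the list from E33 to E95 was 0.30 after scaling, against 0.00 for all genes.

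**Figure D4:**
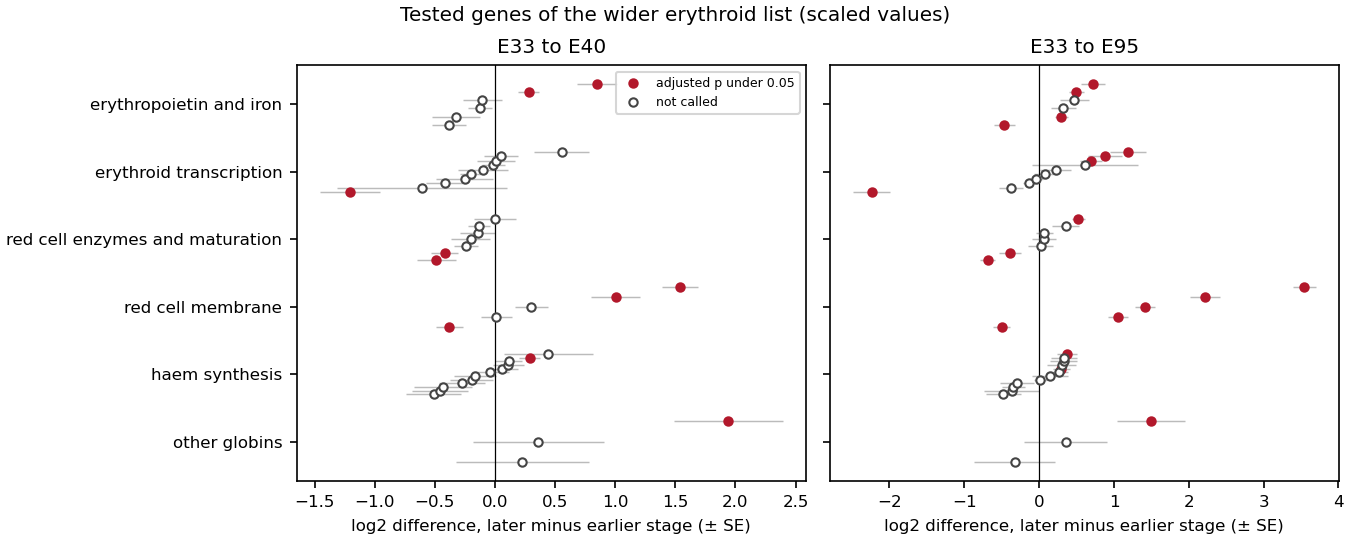
Log2 difference between stages on scaled values, with its standard error, for the 43 tested genes of the wider erythroid list in 6 groups, filled where the limma adjusted p is under 0.05. From E33 to E95, 14 genes are called higher and 5 lower, with SPTB highest and BCL11A lowest.

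In the red cell membrane group all 5 tested genes were called from E33 to E95, 4 higher and 1 lower, where 46.7% of all genes tested were called. SPTB, beta spectrin of the membrane skeleton, which skeletal muscle also expresses, rose from 3.998 TPM ± 0.535 to 57.3 TPM ± 7.66 in scaled means (SD, n = 3 each), a log2 difference of 3.54 (SE 0.15, limma adjusted p 3.31e-10). AQP1, a water channel of red cells and of capillary endothelium, rose by 2.22 (SE 0.20, limma adjusted p 6.35e-07). GYPC, a glycophorin, rose by 1.42, and ANK1, the ankyrin that anchors band 3 and has a form in muscle, rose by 1.06. EPB41, protein 4.1 of the skeleton and outside the naming rule, fell by 0.50. As deposited GYPC and ANK1 were not called, with log2 differences of 0.31 and 0.41. Over the same stages 6 of 6 matched endothelial markers were called higher on scaled values, against 22.8% of all genes tested. Their summed level went from 25.6 to 33.4 scaled TPM at E33 to 90.5 to 103 at E95. As deposited it was 30.3 to 62.5 TPM at E33 and 58.6 to 79.7 TPM at E95, which overlap. The summed level of the muscle markers rose as given above. Of these 8, 6 were called higher and 1 lower, MYH3, by 1.08 on the log2 scale (limma adjusted p 0.000186). The part of endothelium and muscle in the rises of the membrane genes was not tested.

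Membrane genes of red cells in the narrower sense were mostly too low to be tested. RHAG, the Rh-associated glycoprotein, ranged from 0.482 to 0.748 scaled TPM at E33 and from 0 to 0.326 at E95. RHAG was picked after its values were seen. Of the 8 matched membrane genes not tested, 4 had all E33 libraries above those of E95 after scaling (50% against 28.2% of the genes tested) and 1 had them below. As deposited it was 7 above and 0 below, against 64.9% above.

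Among the 10 tested erythroid transcription genes, 4 were called from E33 to E95, where 46.7% of all genes tested were. BCL11A, a repressor of embryonic and fetal globin genes that is also expressed in neurons, fell by 2.24 on the log2 scale (SE 0.25, limma adjusted p 4.38e-06), from a scaled mean of 7.56 TPM ± 0.187 to 0.851 TPM ± 0.445 (SD, n = 3 each). GATA2, a factor of blood progenitors and endothelium, rose by 1.18 (limma adjusted p 0.000926), against 0.46 as deposited, not called. LMO2, a partner of GATA factors in blood and endothelium, rose by 0.88, and ZBTB7A, a globin repressor with wide expression, rose by 0.70. As deposited LMO2 and ZBTB7A had the opposite sign, at -0.14 and -0.48, and were not called. BCL11A was lower in every setting run, and it too was already lower at E40, by 1.21 (limma adjusted p 0.00394).

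Of 12 tested genes of haem synthesis, 2 were called from E33 to E95, where 46.7% of all genes tested were. They were ALAS1 (the housekeeping counterpart of ALAS2) at 0.37 and CPOX at 0.30, and both had the opposite sign as deposited (-0.73 and -0.68). From E33 to E40, where 21% of all genes were called, the sole call was UROS at 0.29 (limma adjusted p 0.0306), with -0.31 as deposited. These calls of haem genes rest on single libraries. ALAS1 was not called without E33 replicate 2 (0.30) or E95 replicate 1 (0.34), UROS without replicate 1 or 3 of either stage (0.23 to 0.30), in the rescaled TPM (0.24) or with both stages fitted alone (0.31), and CPOX without any 1 of E33 replicates 1 to 3 or E95 replicates 1 and 2 (0.19 to 0.31). Of 7 red cell enzymes and maturation genes, CAT (catalase) was higher at E95 by 0.52, while UBE2O, a ubiquitin ligase that clears proteins from maturing red cells, and BNIP3L, which is outside the naming rule, were lower by 0.69 and 0.39. CAT too had the opposite sign as deposited (-0.56). PRDX2 and MXI1 were lower at E40 than at E33 by 0.49 and 0.42. The call of PRDX2 was lost in 18 of 28 alternatives, among them each that left out 1 of the 6 libraries of these stages (-0.56 to -0.42). That of MXI1 was lost in 5 of 27, namely as deposited (-0.90), with both stages fitted alone (-0.44), and without E33 replicate 2 or 3 or E40 replicate 1 (-0.41 to -0.36). Of 6 genes of erythropoietin signalling and iron, STAT5A (0.72), TFRC, the transferrin receptor (0.50), and JAK2 (0.30, outside the naming rule) were higher and SLC11A2 (-0.46) was lower at E95, the last not without E95 replicate 1 (-0.31). STAT5A and TFRC were at -0.35 and -0.45 as deposited. KIT was higher at E40 than at E33 by 0.85 (limma adjusted p 0.00241), and it was not called as deposited (0.22).

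Peaks of m6A were then looked for in the 7 genes. None of the 7 had a peak in any of the 8 lists, and the count stayed at 0 when peaks were assigned by position instead of by name. Of all genes averaging at least 1 TPM, 45.8% had a peak in some muscle list, and 26.9% of those at 1 to 5 TPM did. The share depends strongly on level. At E33 it was 10.2% of the genes at 1 to 5 TPM, where ALAS2, AHSP, SLC4A1 and EPB42 lay, and 37.3% at 5 to 20 TPM, where GATA1 lay. HBZ lay in the range of 100 to 500 TPM at E33, in which 62.7% of 485 genes had a peak. Gene length was not matched in these shares, and each stage has 1 list, so there is no replicate of a missing peak.

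**Figure D5:**
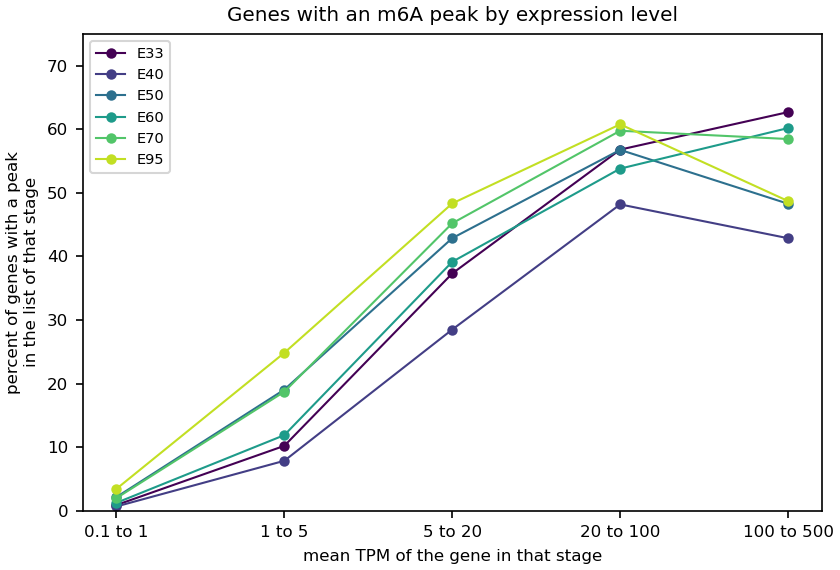
Percent of genes with an m6A peak in the list of a stage against the mean TPM of the gene in that stage, with 1 line per stage. At E33 the share goes from 10.2% of the genes at 1 to 5 TPM to 62.7% at 100 to 500 TPM, the range of HBZ, which has no peak.

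The alpha locus carried 1 peak, at E60. That was the stage with the highest scaled mean of ENSSSCG00000007978, at 137 TPM against 24.1 to 74.7 TPM at the other stages. Whether the peak goes with the level was not tested. It lay at chr3:41482801-41482860 on the minus strand, within coding exon 2 of LOC110259958, with a fold enrichment of 2.02 and a p-value of 1e-10 in the authors' list, and holds 2 DRACH motifs, the sequence context of m6A. Its bases are the capitals in the alpha exon printed above, and since LOC100737768 has the same exon the peak cannot be assigned to 1 copy. HBB, HBM and HBQ1 had none in any list.

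Of the 63 matched genes of the wider list, 22 had a peak in some muscle list and a further 15 had one in PK15 alone. Among the 43 of them that were tested these were 21 (48.8%) and 12 (27.9%), against 45.8% and 21.8% of all genes averaging at least 1 TPM. SPTB, EPB41, GYPC, UBE2O, LDB1 and ZBTB7A had peaks in all 6 muscle lists, and the share of all genes that did is not given here. SPTB had 2 peaks at E33 and 9 at E95, over the stages in which its level rose by 3.54 on the log2 scale. The share of genes with a peak depends on level, as given above. BCL11A had 3 peaks at E33, 1 at E40 and none later, over the stages in which its level fell.

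The 250 bases before the RefSeq start of each gene were searched on both strands for GATA-type sites of the kind GATA1 binds (AGATAA or its variant AGATAG, and likewise TGATAA or its variant TGATAG) and for CACCC, the core of the sites of KLF factors. A GATA-type site was found in 6 of 7 genes, all but GATA1 itself, against 20.1% of 19534 RefSeq windows of that length. CACCC was found in 5 of 7, against 53.9%, and both together in 4 of 7, against 9.02%. The other motifs searched, CCAAT and TATAAA, were found in 2 of 7, against 31.9%, and in 0 of 7, against 9.76%. Of the other globin genes searched, HBM and HBE1 held a GATA-type site, and HBB, HBQ1, LOC110259958 and LOC100737768 held none. A match is a description of letters. The windows are shown for ALAS2 and AHSP, which took differing courses, and for KLF1, from the RefSeq genome of Sscrofa11.1. Matches to the GATA-type and CACCC motifs are in capitals. ALAS2 lies at chrX:47896042-47896291 (minus strand), AHSP at chr3:17060344-17060593 (minus strand) and KLF1 at chr2:66144517-66144766 (plus strand).
ALAS2: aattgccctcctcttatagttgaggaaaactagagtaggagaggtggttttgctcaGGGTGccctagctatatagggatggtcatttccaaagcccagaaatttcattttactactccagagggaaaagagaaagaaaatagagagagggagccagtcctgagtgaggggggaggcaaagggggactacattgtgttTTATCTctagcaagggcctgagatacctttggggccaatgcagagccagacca
AHSP: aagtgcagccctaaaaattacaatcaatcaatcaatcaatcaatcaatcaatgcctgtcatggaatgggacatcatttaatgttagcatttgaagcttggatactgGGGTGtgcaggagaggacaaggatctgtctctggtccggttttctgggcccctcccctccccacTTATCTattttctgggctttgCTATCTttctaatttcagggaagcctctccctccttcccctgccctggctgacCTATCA
KLF1: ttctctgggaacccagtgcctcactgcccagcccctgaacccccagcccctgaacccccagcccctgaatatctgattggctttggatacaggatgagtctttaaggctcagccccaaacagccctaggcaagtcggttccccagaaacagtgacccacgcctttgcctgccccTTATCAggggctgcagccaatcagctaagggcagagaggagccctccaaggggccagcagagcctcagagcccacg
AHSP held 3 GATA-type sites and 1 CACCC, ALAS2 held 1 of each, and KLF1 held 1 and none. The window of HBZ, with 1 GATA-type site and no CACCC, lies before a RefSeq first exon of 1057 bases and is not printed. Whether that window lies before the start used in these cells was not tested, and its GATA-type site is among those counted above.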

How the data were processed

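Expression came from the 18 muscle input libraries, in TPM computed by the authors and named so in the file headers, for 22427 Ensembl genes. TPM keeps no depth, so no counting interval can be given. The peak lists give a fold enrichment and a p-value per peak from the authors' caller, per the file headers, with 1 list per stage or PK15 preparation. Trimmomatic, HISAT2 and Sscrofa11.1 are named in the submitters' processing notes, and the quantification program and peak caller are not given in the sources used here.

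The 7 genes, the wider list and the markers were chosen with earlier results of these data known. Symbols were joined to Ensembl identifiers through a table of gene names. TPM was scaled by median ratios, and limma 3.58.1 (R 4.3.3) was fitted to log2(scaled TPM + 1), with 1 mean per stage over all 18 libraries (12 residual degrees of freedom), for the 13334 genes that averaged 1 TPM or more. Tests were two-sided, and calls were made below 0.05 after Benjamini-Hochberg adjustment over these genes. The fit was tested on simulated data. Some values are not reported here. No litter, run or date is given in the labels, so no batch was fitted. Named were the 7 genes, every matched globin, at most 4 called genes of each group from E33 to E40 or from E33 to E95 by size, and the 8 genes with a symbol most correlated with HBZ and with ALAS2. Sequences and positions came from RefSeq on Sscrofa11.1, with Python 3.11.15, pandas 2.3.3, numpy 2.4.6 and pysam 0.24.0. Alternatives were the scaling, the pseudocount, the filter on low values, the variance trend, a replicate block, each pair of stages alone and leaving out libraries.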

Additional observations from a re-analysis of the deposited data

How the results depend on the processing

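From E33 to E40, where 10 genes of the wider list were called, 1 was called with TPM as deposited (of all genes, 28 higher and 621 lower), 6 with a mean of at least 5 TPM (27 genes tested) and 5 when the libraries of E33 and E40 were fitted alone. Leaving out 1 library at a time gave 5 to 10, and the lower counts were 6 (without E33 replicate 1), 5 (E33 replicate 3 left out) and 6 (E40 replicate 1 left out). From E40 to E95 the count of 19 became 1 as deposited (of all genes, 240 higher and 502 lower) and 12 at 5 TPM, and 13 to 21 with 1 library left out. From E33 to E95 the 19 became 12 at 5 TPM and 16 to 22 with 1 library left out. The fewer genes tested bear on the counts at 5 TPM. The cause was not tested for the others. Without both libraries high in ENSSSCG00000032599 the counts were 9, 18 and 22.

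No clear pairing of the libraries by replicate number was seen, although 3 libraries per stage cannot exclude it. The median correlation of deviations was 0.02 between libraries of the same number (-0.12 to 0.10) and -0.0034 between those of other numbers. Of 18 libraries, 8 matched their own number best. With the replicate number as a block the counts were 9, 19 and 19.

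The count of the 7 genes with all E33 libraries above E95 was 4 as deposited and 2 after median-ratio scaling or quantile normalization. These log2 differences from E33 to E95 turned negative as deposited and, second, in TPM rescaled without the 2 most abundant genes: ALAS1 -0.73 and -0.22, CAT -0.56 and -0.039, CPOX -0.68 and -0.24, and PRDX2 -1.21 and -0.63. As deposited alone, LMO2 was -0.14, STAT5A -0.35, TFRC -0.45 and ZBTB7A -0.48 over these stages, and UROS -0.31 from E33 to E40. Differences that were not called on scaled values were called lower in the rescaled TPM for MXI1 (-0.46) and UROS (-0.59) from E33 to E95 and for CPOX (-0.29) from E40 to E95, and as deposited they were -0.81, -1.03 and -0.26, not called. PRDX2 was -0.015 and -0.044 from E40 to E95. The absence of depth limits all values near 0 TPM.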
